A study of Mus musculus with 9 samples.

Results

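The nuclear genes that encode subunits of respiratory complexes I to IV were followed in neonatal rat ventricular myocytes (NRVMs) overexpressing LacZ, Nrf1 or Nrf2. The set holds 45 genes named as subunits, with no threshold on their values: 29 of complex I, 4 of complex II, 7 of complex III and 5 of complex IV. Of these, 44 were listed in all 3 deposited tables, which hold 14819 to 14986 genes, and *Ndufa3* of complex I was not analysed here. Against LacZ, the median log2 fold change of the members was 0.082 with Nrf1 and 0.21 with Nrf2. These were 0.0079 and 0.11 with the tables scaled to the summed means of the genes whose reads were recovered in both groups. This scaling leaves out 2 genes whose LacZ reads had no single solution, and medians with them included were not computed. With Nrf1, 19 members rose and 7 fell, beside 41.1% and 31.1% of all genes with a mean normalised count of at least 100, and the ones that fell included core or catalytic subunits of complexes II and III (*Sdha*, *Cyc1*, *Uqcrc1*, *Uqcrc2*). With Nrf2, 32 members rose and 0 fell, beside 32.9% and 27.2% of all such genes. Of these rises, 21 passed the test with the tables scaled to those summed means.

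Complexes I to IV carry electrons from NADH and succinate to oxygen in the inner mitochondrial membrane, and complexes I, III and IV pump protons as they do so. Complex I takes electrons from NADH in its N module, passes them to ubiquinone in its Q module and pumps protons through its membrane arm. Complex II oxidises succinate, complex III passes electrons from ubiquinol to cytochrome c, and complex IV reduces oxygen. Most subunits are encoded in the nucleus and a few in mitochondrial DNA, and the latter were not analysed here. Heart muscle depends on this chain for nearly all of its ATP. Nrf1 here is the Cap'N'Collar factor encoded by *Nfe2l1*, not nuclear respiratory factor 1, which shares its abbreviation and is known for its role at respiratory genes.

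The myocytes came from Sprague Dawley pups of 1 or 2 days and were cultured for 48 h in medium with 3% serum before they received an adenovirus for LacZ (the control), Nrf1 or Nrf2 at a multiplicity of infection of 50. RNA was collected 48 h after infection, with 3 libraries in each group. All groups received virus, so no uninfected cells were compared. Per the methods, a CMV promoter, which is active in any infected cell type, drove the transgenes in vectors that also encoded a red fluorescent protein, and the Nrf2 insert was of mouse origin. The labels do not say whether the libraries of a group came from separate cultures or litters, so the p-values measure only the spread between these libraries, which may be technical.

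Each deposited value is the mean of 3 libraries, and the reads of each library were recovered from these means as described under the processing. The 9 libraries held 7796863 to 11842377 reads over 14441 shared genes, and within a group they are numbered 1 to 3 by depth, since the tables do not tie them to the replicate numbers in the labels. Normalised counts are reads scaled by the authors for 1 pair of groups, so LacZ values differ slightly between the tables of Nrf1 and Nrf2. Fold changes are on the log2(value + 1) scale, with the limma test and Benjamini-Hochberg adjusted p-values over all genes fitted. Normalised counts are not corrected for gene length. *Nfe2l2*, which encodes Nrf2, stood at 372 to 378 RPM (reads scaled to a fixed total over the shared genes) in LacZ, 290 to 297 in Nrf1 and 6865 to 8028 in Nrf2 libraries, and *Nfe2l1* was not analysed here.

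The labelled cell type was checked with 12 cardiomyocyte markers, of which 11 were listed. With Nrf1, 2 of these 11 rose and 7 fell, and with Nrf2 6 rose and 2 fell. Their summed level was 16450 to 18631 RPM in LacZ, 16254 to 16435 in Nrf1 and 18118 to 18441 in Nrf2 libraries. Markers of other cell types moved with the groups. The 9 fibroblast markers recovered in every library summed to 3452 to 4207 RPM in LacZ, 884 to 917 in Nrf1 and 1681 to 1811 in Nrf2 libraries, and 9 of 9 fell with Nrf1 and 8 of 9 with Nrf2. Of the 10 fibroblast markers listed, the other had no single solution for its LacZ reads, so it is in neither these sums nor these counts. Its level is not given here, and the sums are too low by its reads. Leukocyte markers summed to 186 to 279 in LacZ, 103 to 107 in Nrf1 and 97.4 to 108 in Nrf2 libraries, and 9 of 10 fell in each comparison with LacZ. Endothelial markers summed to 154 to 162, 107 to 118 and 103 to 127, and smooth muscle markers to 3569 to 4207, 6067 to 6176 and 4786 to 5112, in the same order. Of 8 endothelial markers, 1 rose and 6 fell with Nrf1 and 1 rose and 5 fell with Nrf2, and of 6 smooth muscle markers 3 rose in each, with 3 falling with Nrf1 and 2 with Nrf2. None of the markers recovered was at 0 in all libraries. In bulk RNA, fewer cells of a type and less RNA per cell cannot be told apart. The part of these shifts in the members' fold changes was not tested.

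**Figure D1:**
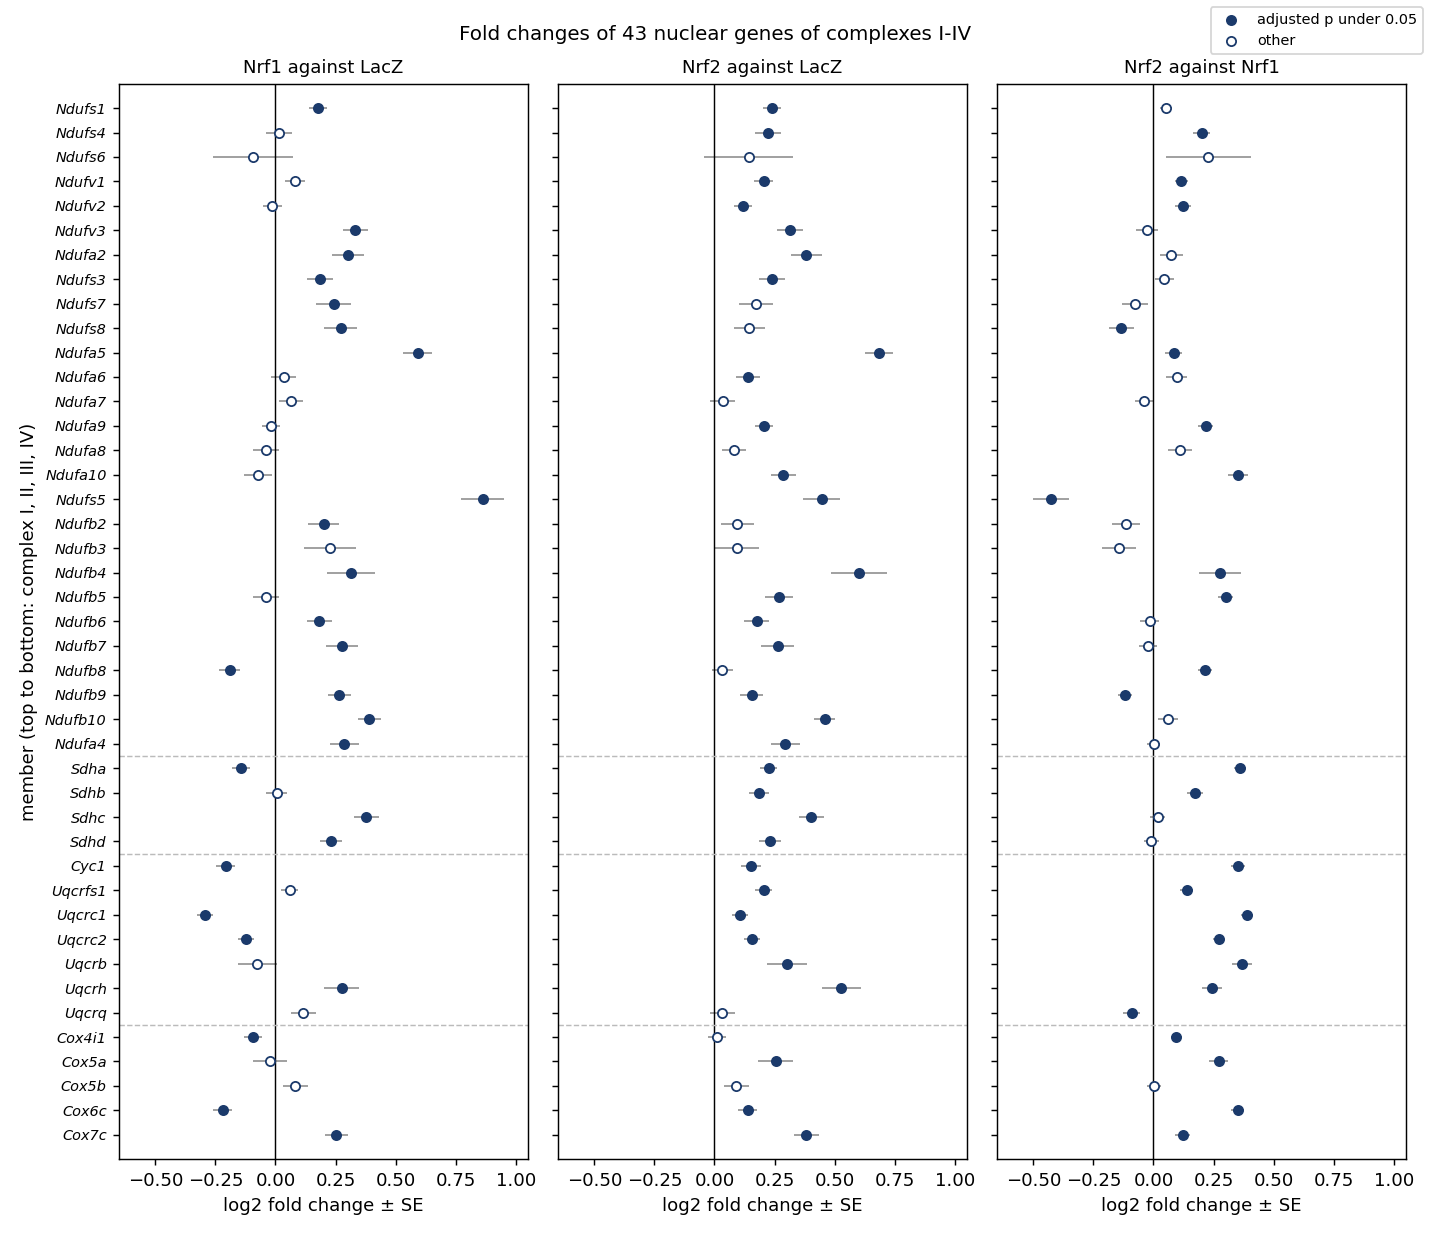
Log2 fold change (x axis) with its standard error for 43 members (y axis, from complex I at the top to complex IV) in the 3 comparisons. Filled points passed an adjusted p of 0.05, and dashed lines divide the complexes. *Ndufa1* is left out because its libraries split within the LacZ and the Nrf2 group. With Nrf1 the points of complexes III and IV lie on both sides of 0, and with Nrf2 all points lie above 0.

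Nrf1 overexpression was first compared with LacZ. Of the 44 members, 19 rose and 7 fell, whereas 41.1% of all genes with a mean normalised count of at least 100 rose and 31.1% fell, so the members' share of rises was near that of all genes. At a fold of at least 1.2, 12 members rose and 1 fell, against 30.2% and 24.1% of all genes, and at 1.5-fold 2 rose and 0 fell, against 11.6% and 11.9%. A log2 fold change above 0 was found for 28 of the 44 members and for 55.3% of those genes. The median log2 fold change was 0.082 over the members and 0.054 over all 8543 genes with that mean. The members' median was 0.028 after centring on the median gene and 0.0079 after scaling to the summed means, and 0.040 without LacZ library 2 and 0.13 without LacZ library 3. The median was 0.18 in complex I, 0.12 in complex II, -0.075 in complex III and -0.023 in complex IV.

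In complex I, 15 of 28 members rose with Nrf1 and 1 fell. *Ndufs5*, an accessory subunit of the proximal membrane arm, had 241, 211 and 213 normalised counts in the LacZ libraries and 353, 443 and 420 in the Nrf1 libraries. All Nrf1 libraries stood above all LacZ libraries, a rise of 0.86 on the log2 scale (SE 0.089, adjusted p = 4.07e-07). *Ndufa5*, an accessory subunit of the Q module, had 1389, 1323 and 1604 in LacZ and 2167, 2052 and 2275 in Nrf1 libraries. These groups did not overlap either, and the rise was 0.59 (SE 0.060, adjusted p = 3.64e-07). These were the 2 members past 1.5-fold, and only *Ndufs5* stayed past it without LacZ library 1, LacZ library 2 or Nrf1 library 3.

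The other rises in complex I were smaller and spread over its parts. In the distal membrane arm 6 of 9 members rose, with *Ndufb10* at 725, 720 and 740 in LacZ and 992, 929 and 946 in Nrf1 libraries, a rise of 0.39 (SE 0.047, adjusted p = 2.34e-06). In the N module, which holds the NADH site, 3 of 7 rose, *Ndufs1*, *Ndufv3* and *Ndufa2*, while the core subunits *Ndufv1* and *Ndufv2* had log2 fold changes of 0.081 and -0.013 that did not pass the test. In the Q module 4 of 7 rose, and these included the core subunits *Ndufs3*, *Ndufs7* and *Ndufs8* at 0.19, 0.24 and 0.27. *Ndufb8*, a subunit of the distal arm often used to monitor complex I protein, was the 1 member of complex I that fell, from 2272, 2105 and 2358.5 in LacZ to 1949, 2009 and 1938 in Nrf1 libraries (log2 fold change -0.19, SE 0.044, adjusted p = 0.00122). *Ndufa4*, counted here with complex I although it was later assigned to complex IV, rose by 0.29 (SE 0.061, adjusted p = 6.72e-04).

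Complex II was divided by role. *Sdha*, the flavoprotein that oxidises succinate, had 4365, 4031 and 4221 normalised counts in LacZ and 3787, 3771 and 3866 in Nrf1 libraries. It was lower in all Nrf1 libraries, by 0.14 on the log2 scale (SE 0.036, adjusted p = 0.00279). The iron-sulfur subunit *Sdhb* had a log2 fold change of 0.0046 and did not pass the test (adjusted p = 0.932). Both membrane anchors rose, *Sdhc* from 1770, 1628 and 1937 to 2240, 2403 and 2281 (log2 fold change 0.38, SE 0.054, adjusted p = 1.35e-05) and *Sdhd* by 0.23 (SE 0.047, adjusted p = 3.98e-04).

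Complex III held 3 of the 7 members that fell. *Uqcrc1*, a core subunit, had 3373, 3351 and 3402 in LacZ and 2752, 2775 and 2739 in Nrf1 libraries. The groups were far apart beside their spread, and the fall was the only one past 1.2-fold (log2 fold change -0.29, SE 0.033, adjusted p = 1.29e-06). *Cyc1*, cytochrome c1, fell from 3283, 3077 and 3365 to 2825, 2798 and 2792 (log2 fold change -0.21, SE 0.039, adjusted p = 1.98e-04), and the core subunit *Uqcrc2* had a log2 fold change of -0.12 (adjusted p = 0.00392). *Uqcrfs1*, the Rieske iron-sulfur protein, had 0.059 and did not pass the test (adjusted p = 0.141). *Uqcrh*, the hinge protein that binds cytochrome c1, was the 1 member that rose, from 1848, 1726 and 2292 in LacZ to 2336, 2315 and 2401 in Nrf1 libraries (log2 fold change 0.28, SE 0.073, adjusted p = 0.00339). The small subunits *Uqcrb* and *Uqcrq* had -0.075 and 0.12 and did not pass the test. LacZ library 3 lay close below the Nrf1 libraries for *Uqcrh*.

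The members of complex IV are accessory subunits around the catalytic core that mitochondrial DNA encodes. *Cox6c* fell from 3077, 2930 and 3218 in LacZ to 2635, 2604 and 2678 in Nrf1 libraries (log2 fold change -0.22, SE 0.039, adjusted p = 1.42e-04), and *Cox7c* rose from 1995, 1833 and 2145 to 2347, 2376 and 2387 (log2 fold change 0.25, SE 0.048, adjusted p = 2.55e-04). *Cox4i1* had a log2 fold change of -0.093 (adjusted p = 0.0431), and this call was lost without any 1 of the libraries other than LacZ library 2, with adjusted p up to 0.191. *Cox5a* and *Cox5b* did not pass the test, at -0.023 and 0.083.

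With each of the 6 libraries left out in turn, 16 of the 19 rises and 6 of the 7 falls with Nrf1 passed the test every time. *Ndufb2* lost its call without LacZ library 2 or Nrf1 library 2 (adjusted p = 0.0533 and 0.0804), *Ndufb4* without LacZ library 2 or Nrf1 library 1 (0.0505 and 0.0619) and *Ndufs7* without Nrf1 library 3 (0.0521). The medians of complexes III and IV took the other sign without LacZ library 3, at 0.058 and 0.088. Members near 0 depended on the scaling. With each table scaled to the summed means of its recovered genes, 16 of the 19 rises and all 7 falls passed the test. Members with a log2 fold change above 0 then numbered 23 rather than 28.

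**Figure D2:**
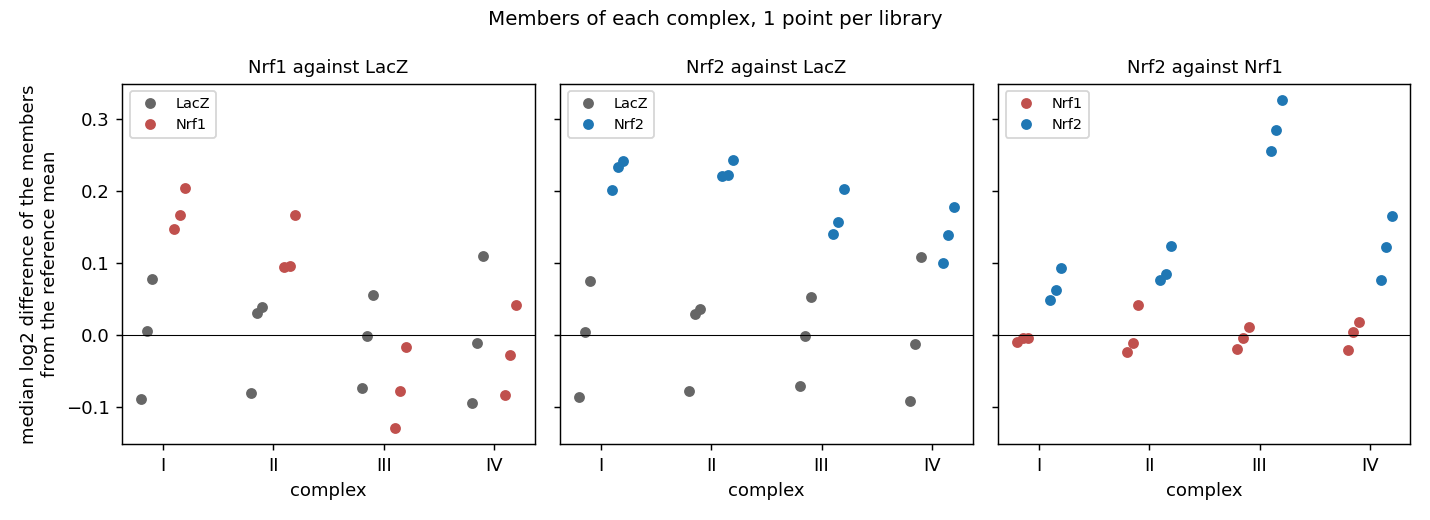
Median log2 difference of the members of each complex (x axis) from the mean of the reference group (y axis), with 1 point per library, grey for LacZ, red for Nrf1 and blue for Nrf2. The reference is LacZ in the first 2 panels and Nrf1 in the third. Complex III shows Nrf1 libraries from -0.13 to -0.017 and LacZ libraries from -0.074 to 0.055 in the first panel, and Nrf2 libraries from 0.26 to 0.33 above Nrf1 libraries in the third.

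The plot of medians by library shows how the complexes stood against the spread of the controls. In complex I the Nrf1 libraries had medians of 0.15 to 0.20 and the LacZ libraries -0.089 to 0.077, without overlap. Complex II did not overlap either, at 0.094 to 0.17 against -0.081 to 0.038. In complexes III and IV the Nrf1 and LacZ libraries overlapped. LacZ library 2 had the lowest and LacZ library 3 the highest median of the LacZ libraries in all 4 complexes, so the controls varied together across the members.

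Nrf2 overexpression was then compared with LacZ, which serves as the control of both comparisons. Of the 44 members, 32 rose and 0 fell, and 32.9% of genes with a mean of at least 100 rose and 27.2% fell. At 1.2-fold, 13 members rose and 0 fell, against 22.5% and 19.3% of those genes, and at 1.5-fold 2 rose and 0 fell, against 7.63% and 6.58%. All 44 members had a log2 fold change above 0, as did 52.2% of those genes, with 43 above 0 after centring on the median gene and 37 after scaling to the summed means. The median was 0.21 over the members, a difference of 15.3%, and 0.016 over all 8652 genes with that mean. The complexes had medians of 0.22 (I), 0.23 (II), 0.16 (III) and 0.14 (IV), and with scaling to the summed means these were 0.12, 0.14, 0.063 and 0.046, with 0.11 over all members.

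In complex I, 19 of 28 members rose with Nrf2, with 6 of 7 in the N module, 4 of 7 in the Q module, 2 of 4 in the proximal and 6 of 9 in the distal membrane arm. *Ndufa5* had 1482, 1416 and 1710 normalised counts in LacZ and 2481, 2474 and 2431 in Nrf2 libraries. This was a rise of 0.68 on the log2 scale (SE 0.057, adjusted p = 1.44e-07) with no overlap. *Ndufb4*, an accessory subunit of the distal arm, had 353, 279 and 385 in LacZ and 476, 612 and 455 in Nrf2 libraries, a rise of 0.60 (SE 0.12, adjusted p = 5.19e-04). Nrf2 library 2 stood above the other two for this gene, and without it, or without LacZ library 2, only 1 member was past 1.5-fold.

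Other members of complex I moved by less. *Ndufb10* rose from 774, 770.3 and 789 to 1090.2, 1047 and 1072 (log2 fold change 0.46, SE 0.044, adjusted p = 7.41e-07), and *Ndufs5* from 258, 226 and 227 to 310.1, 336 and 322 (0.45, SE 0.078, adjusted p = 2.10e-04). *Ndufv1*, the flavoprotein that receives electrons from NADH, had 2919, 2706 and 2985 in LacZ and 3311, 3337 and 3265 in Nrf2 libraries, a rise of 0.20 (SE 0.041, adjusted p = 6.43e-04). *Ndufb8* had 0.032 and did not pass the test (adjusted p = 0.562), and nor did *Ndufs7* (0.17, adjusted p = 0.0512), *Ndufs8* (0.15), *Ndufa7* (0.034), *Ndufa8* (0.080), *Ndufb2* (0.095) or *Ndufb3* (0.092). *Ndufs6* was the member with the lowest mean, at 53.6, 62.2 and 69.6 in LacZ and 82.4, 74.8 and 50.8 in Nrf2 libraries, and these overlapped.

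All 4 members of complex II rose with Nrf2. *Sdha* had 4657, 4315 and 4501 in LacZ and 5270, 5191 and 5286 in Nrf2 libraries, a rise of 0.23 (SE 0.036, adjusted p = 9.95e-05). *Sdhc* rose by 0.40 (SE 0.052, adjusted p = 1.29e-05), *Sdhd* by 0.23 and *Sdhb* by 0.19, which was the lowest of the 4. In complex III, 6 of 7 rose. *Uqcrh* had 1972, 1847 and 2444 in LacZ and 3254, 2840 and 2889 in Nrf2 libraries, a rise of 0.53 (SE 0.080, adjusted p = 6.34e-05), with Nrf2 library 1 the highest. *Uqcrq*, a small subunit, had 0.033 and did not pass the test (adjusted p = 0.607).

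*Uqcrc1*, *Uqcrc2* and *Cyc1* rose with Nrf2, by 0.11, 0.16 and 0.15 on the log2 scale. For *Uqcrc1* the LacZ libraries had 3599, 3587 and 3628 and the Nrf2 libraries 3877, 3942 and 3815. On this scale a difference of 7.58% stood apart from a narrow spread (adjusted p = 0.0153). In RPM the libraries overlapped, at 387 to 390 in LacZ and 386 to 398 in Nrf2, so their separation differed between the 2 scales. The RPM totals leave out 2 genes whose LacZ reads had no single solution. Whether the libraries overlap with these genes in the totals was not tested. In complex IV, *Cox7c* rose from 2129, 1963 and 2287 to 2851, 2771 and 2683 (log2 fold change 0.38, SE 0.050, adjusted p = 1.54e-05), and *Cox5a* and *Cox6c* rose by 0.26 and 0.14. *Cox5a* overlapped between the groups, with LacZ library 3 at 2866 and Nrf2 library 3 at 2788, as did *Ndufb9* of complex I. *Cox4i1* had the smallest difference of all members, 0.010 (SE 0.039, adjusted p = 0.834), and *Cox5b* had 0.091.

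With each library left out in turn, 27 of the 32 rises passed the test every time. *Cox6c* and *Ndufv2* lost their calls without Nrf2 library 1 (adjusted p = 0.0506 and 0.0599), *Uqcrc1* without Nrf2 library 2 (0.0709), *Ndufb9* without LacZ library 1 or Nrf2 library 1 (0.0679 and 0.0638) and *Ndufa6* without any 1 of 4 libraries (up to 0.118). Scaled to the summed means, which lowers every log2 fold change by 0.093, 21 of the 32 rises passed, and the 11 that did not were *Cox5a*, *Cox6c*, *Cyc1*, *Uqcrc1*, *Uqcrc2*, *Sdhb*, *Ndufa6*, *Ndufb6*, *Ndufb9*, *Ndufs4* and *Ndufv2*. The Nrf2 libraries had medians of 0.20 to 0.24 in complex I, 0.22 to 0.24 in complex II and 0.14 to 0.20 in complex III, with no overlap with LacZ. In complex IV they had 0.10 to 0.18 and overlapped LacZ library 3 at 0.11.

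**Figure D3:**
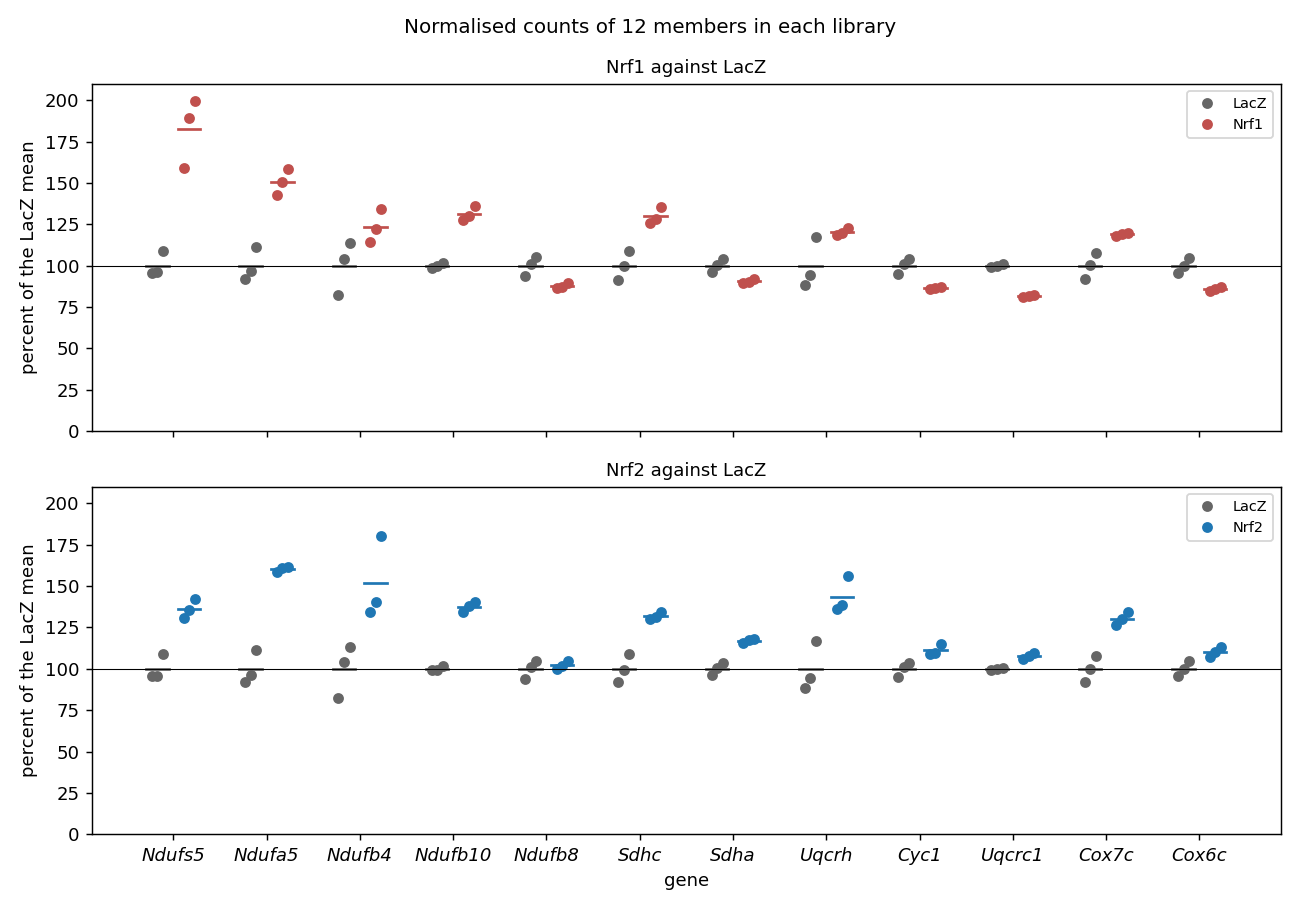
Normalised count of 12 members (x axis) in each library as a percentage of the LacZ mean in the same table (y axis, from 0), with points for libraries and bars for group means. The upper panel shows Nrf1 in red and the lower panel Nrf2 in blue, both with LacZ in grey. *Sdha*, *Cyc1*, *Uqcrc1* and *Cox6c* lie below the LacZ libraries with Nrf1 and above them with Nrf2, while *Ndufa5* and *Sdhc* lie above them in both panels. On the RPM scale, which is not drawn, the LacZ and Nrf2 libraries overlap for *Cyc1*, *Uqcrc1* and *Cox6c*. The RPM totals leave out 2 genes whose LacZ reads had no single solution, and the overlap with them included was not tested.

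Nrf2 and Nrf1 libraries were compared directly in the third table. This comparison shares its libraries with the other 2, so its values are set beside theirs and are not independent of them. Of the 44 members, 22 were higher in Nrf2 than in Nrf1 libraries and 4 were lower, against 29.3% and 36.4% of genes with a mean of at least 100. At 1.2-fold, 11 were higher and 1 lower (19.8% and 21.6% of those genes), and at 1.5-fold 1 was higher, *Ndufa1*, and 0 lower (7.41% and 4.23%). The median log2 fold change was 0.10 over the members and -0.034 over all 8638 genes with that mean. Complex III had the highest median, 0.27, with 0.067 in complex I, 0.095 in complex II and 0.12 in complex IV.

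After *Ndufa1*, the highest log2 differences were in *Uqcrc1*, *Uqcrb*, *Sdha*, *Cyc1*, *Ndufa10* and *Cox6c*. *Uqcrc1* had 3073, 3092 and 3057 normalised counts in Nrf1 and 4031, 4093 and 3964.5 in Nrf2 libraries on the scale of this table, a log2 difference of 0.39 (SE 0.026, adjusted p = 3.90e-10). *Sdha* had 4229, 4202 and 4316 in Nrf1 and 5479, 5390.3 and 5493 in Nrf2 libraries, 0.36 higher (SE 0.024, adjusted p = 3.90e-10). In both genes the spread within each group was small beside the difference. *Cyc1* was higher by 0.35 (SE 0.028, adjusted p = 4.28e-09), *Cox6c* by 0.35 (SE 0.028, adjusted p = 5.93e-09), *Uqcrb*, a small subunit of complex III, by 0.37 (SE 0.041, adjusted p = 4.72e-07), and *Uqcrc2* by 0.27. *Ndufa10*, of the proximal membrane arm, was higher by 0.35 (SE 0.042, adjusted p = 9.44e-07), and *Ndufb5* and *Ndufb8* by 0.30 and 0.21. The rat tables also list *Ndufa10l1*, which is named as a copy of *Ndufa10* and had 57.8 to 64.0 RPM in LacZ, 49.0 to 50.6 in Nrf1 and 58.9 to 62.8 in Nrf2 libraries, so the share of reads between the 2 genes is uncertain.

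The 4 members lower in Nrf2 than in Nrf1 libraries were *Ndufs5*, *Ndufb9*, *Ndufs8* and *Uqcrq*. *Ndufs5* had 394, 494 and 468 in Nrf1 and 322, 349 and 334 in Nrf2 libraries. The libraries did not overlap, and the log2 difference was -0.42 (SE 0.075, adjusted p = 9.18e-05). *Ndufb9* had -0.12 (adjusted p = 0.00184). *Ndufs8* (-0.13) lost its call without any 1 of 4 libraries (adjusted p up to 0.205) and *Uqcrq* (-0.091), whose libraries overlapped, without any 1 of 3 (up to 0.188), and both lost it after centring on the median gene. *Ndufa5* passed the test at 0.084, but not without any 1 of 5 libraries (adjusted p up to 0.282), and *Ndufb4* at 0.28, but not without Nrf1 library 3 or Nrf2 library 2 (0.0653 and 0.0885). Both genes overlapped between the groups. The membrane anchors *Sdhc* and *Sdhd* differed by 0.017 and -0.0086 (SE 0.031 and 0.032), *Cox5b* by 2.10e-04 (SE 0.029) and *Ndufa4* by 0.0013 (SE 0.027), and none of these passed the test. By library, complex III had medians of 0.26 to 0.33 in Nrf2 and -0.020 to 0.011 in Nrf1 libraries, and the other complexes did not overlap either.

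Mean count and fold change were set side by side across the members, without correction for gene length. The Spearman correlation of mean count with log2 fold change was taken over the 42 members other than *Ndufa1* and *Ndufs6*. It was -0.46 for Nrf1 against LacZ, -0.14 for Nrf2 against LacZ and 0.43 for Nrf2 against Nrf1. In the same order it was 0.14, 0.13 and -0.062 over all genes with a mean normalised count of at least 100. These correlations are across genes that share the same libraries, and genes are not replicates.

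*Ndufa1*, a small accessory subunit of the proximal membrane arm, stood apart from the other members. Its deposited means were 95.6 in LacZ and 1.91 in Nrf1, and in the table for Nrf2 they were 102 in LacZ and 223 in Nrf2. The libraries behind these means had 255, 0 and 2 reads in LacZ, 2, 1 and 3 in Nrf1, and 5, 339 and 440 in Nrf2. The gene was thus near 0 in 6 of 9 libraries and at 255 or more reads in LacZ library 1 and Nrf2 libraries 2 and 3. The log2 fold change was -1.74 with Nrf1 (SE 1.37, adjusted p = 0.273) and 3.15 with Nrf2 (SE 1.70, adjusted p = 0.132), neither past the test. Without LacZ library 1 these became 0.72 (adjusted p = 0.456) and 5.64 (adjusted p = 0.00306), and without LacZ library 2 the first became -3.36 (adjusted p = 0.0159).

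**Figure D4:**
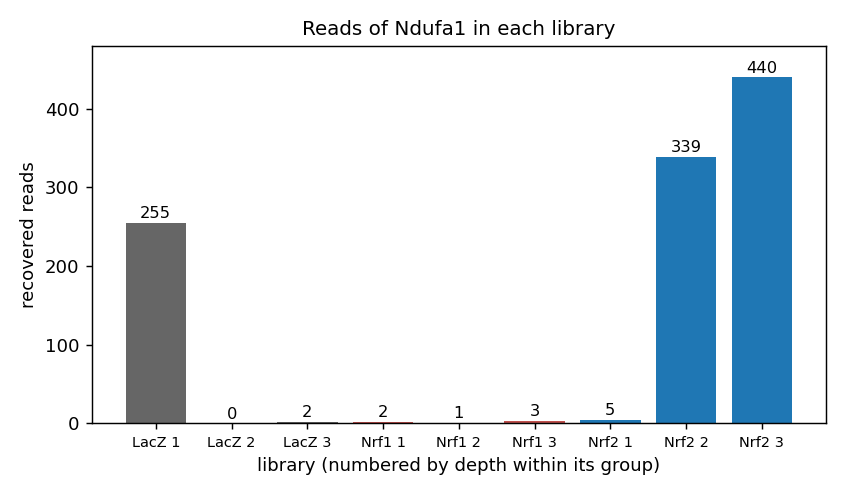
Recovered reads of *Ndufa1* (y axis) in each of the 9 libraries (x axis, numbered by depth within the group). LacZ library 1 had 255 reads and Nrf2 libraries 2 and 3 had 339 and 440, while each of the other libraries had at most 5.

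Between Nrf2 and Nrf1 libraries *Ndufa1* differed by 4.90 (SE 0.97, adjusted p = 3.01e-04 with limma on log2 values), and with 1 library left out it differed by 3.85 to 6.84 (adjusted p at most 0.00539). With voom weights the adjusted p was 0.145, while centring, scaling to the summed means, a pseudocount of 5, no filter and a filter at 100 gave at most 5.44e-04. Of 8411 genes averaging 100 reads or more, no other had as wide a range as *Ndufa1* in both the LacZ and the Nrf2 libraries. The cut-off here was the range of *Ndufa1* itself, so narrower splits within groups were not counted. The range of *Ndufa1* between libraries was 8.31 in LacZ and 5.96 in Nrf2 on the log2 scale, and the next gene, *Ube2b*, reached 4.40 in both groups, whereas the widest range of any other member was 0.68 (*Ndufs6*). The LacZ mean of *Ndufa1* thus rested on 1 library and the Nrf2 mean on 2, while the Nrf1 libraries were alike, with a range of 0.96. Leaving it out moved the median of complex I from 0.184 to 0.186 with Nrf1 and from 0.215 to 0.207 with Nrf2.

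**Figure D5:**
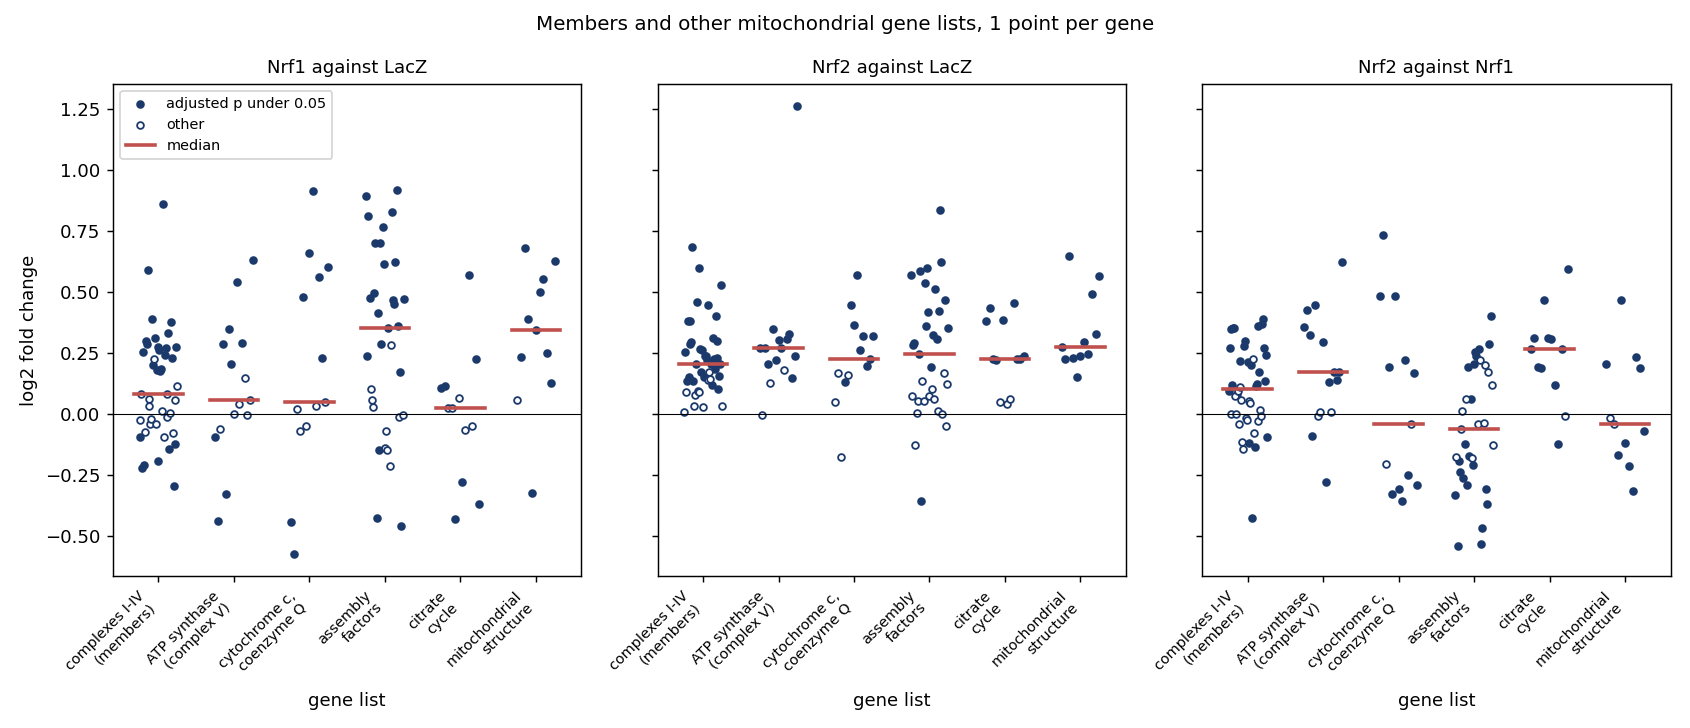
Log2 fold change (y axis) of the members and of 5 other lists of nuclear genes for mitochondria (x axis) in the 3 comparisons, with 1 point per gene, filled where the adjusted p was under 0.05, and a red line at the median. *Ndufa1* is not drawn but counts in the members' median. With Nrf1 the assembly factors have a median of 0.35 and the members 0.082, and with Nrf2 the lists have medians of 0.21 to 0.28.

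The members were set beside other nuclear genes of oxidative metabolism. For the counts in this and the next lists, 41.1% of all genes with a mean of at least 100 rose and 31.1% fell with Nrf1. With Nrf2, 32.9% rose and 27.2% fell. ATP synthase, which uses the proton gradient that the complexes build, had 6 of 15 genes higher and 3 lower with Nrf1 (median 0.058), and 12 higher and 0 lower with Nrf2 (median 0.27). *Atpif1*, the inhibitor of ATP hydrolysis by this enzyme, had 1991, 1887 and 1969 normalised counts in LacZ and 2984, 2974 and 3103 in Nrf1 libraries, a rise of 0.63 (SE 0.038, adjusted p = 6.28e-10). With Nrf2 it rose further, from 2124, 2020.2 and 2099 to 4993, 5127 and 4868 (1.26, SE 0.037, adjusted p = 1.51e-12). *Cycs*, cytochrome c, had 0.051 with Nrf1, which did not pass the test, and rose by 0.23 with Nrf2. Among 12 genes for coenzyme Q synthesis, 6 rose and 2 fell with Nrf1 and 8 rose and 0 fell with Nrf2. *Coq5*, *Coq4* and *Pdss2* rose most with Nrf1, by 0.92, 0.66 and 0.61, and *Adck4* was 0.73 higher in Nrf2 than in Nrf1 libraries.

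Assembly factors build the complexes but are not part of them. Of 33 tested, 20 rose and 3 fell with Nrf1, with a median of 0.35, and 9 rose past 1.5-fold, beside 11.6% of all genes with a mean of at least 100. *Taco1*, an activator of translation of a complex IV core subunit, rose by 0.92 (adjusted p = 6.05e-05), *Acad9* of complex I assembly by 0.89 (adjusted p = 1.80e-09) and *Pet100* of complex IV assembly by 0.83 (adjusted p = 3.95e-07). With Nrf2, 18 rose and 1 fell, with a median of 0.25, and *Sdhaf3* of complex II assembly and *Lyrm7* of Rieske protein insertion rose by 0.84 and 0.60. Against Nrf1, 8 assembly factors were higher with Nrf2 and 13 were lower, beside 29.3% and 36.4% of all genes with that mean.

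The subunits outside the set were described as well. Of 16 tested, 7 rose and 3 fell with Nrf1 and 9 rose and 1 fell with Nrf2. The 3 that fell with Nrf1 were the complex IV isoforms of heart or restricted expression. *Cox6a2*, an isoform of heart and skeletal muscle, had 2771, 2621 and 2778 in LacZ and 1567, 1557 and 1402 in Nrf1 libraries, a log2 fold change of -0.85 (SE 0.046, adjusted p = 2.08e-10), and *Cox8b* had -0.74 (SE 0.18, adjusted p = 0.00187). With Nrf2 these had 0.032 and 0.11, neither past the test, and against Nrf1 they were 0.88 and 0.84 higher. *Cox4i2* had means of 28.0 in LacZ and 10.6 in Nrf1 and fell in both comparisons with LacZ, by 1.35 and 1.63. The ubiquitous isoforms *Cox6a1* and *Cox7a2* had 0.092 and 0.16 with Nrf1, and the second passed the test.

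Citrate cycle enzymes had 4 of 12 higher and 3 lower with Nrf1 (median 0.026) and 9 higher and 0 lower with Nrf2 (median 0.23). *Suclg2*, a subunit of succinate-CoA ligase, was 0.60 higher in Nrf2 than in Nrf1 libraries. Of 11 genes of mitochondrial membranes, 9 rose and 1 fell with Nrf1 (median 0.35) and 11 rose with Nrf2 (median 0.28), led by *Phb*, prohibitin, at 0.68 and 0.65. *Vdac3*, a channel of the outer membrane, rose by 0.63 with Nrf1.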

How the data were processed

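RNA was sequenced from 9 NRVM libraries, 3 each for LacZ, Nrf1 and Nrf2. The labels give the organism as mouse and the cells as Sprague Dawley rat. Per the paper's methods, the authors used HISAT2 2.0.4 to align 75-bp single-end reads of stranded libraries to Rnor 6.0, SAMtools 0.1.18 to drop duplicates, featureCounts 1.6.0 for gene counts, and edgeR 3.20.5. Removing duplicates from single-end reads can lower high counts.

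The authors deposited 3 tables, 1 per pair of groups. The signal used from the deposited tables is each group's mean of read counts after division by the size factors of its libraries. Fold changes and p-values of the authors are also listed and were not used. 0 columns of single samples were left unused.

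Each group mean occurs in 2 tables with different size factors, so it was solved for the whole reads of its 3 libraries. There was 1 solution for 14677 of 14679 genes in LacZ, 14579 of 14579 in Nrf1 and 14746 of 14746 in Nrf2, with deviations up to 5.02e-06, and simulated reads were recovered for 100% of genes. The 2 other genes, neither a member and 1 of them a fibroblast marker, were left out of LacZ and of the RPM totals. Scaling to the summed means covers only genes with recovered reads in both groups, so it leaves these 2 genes out of both comparisons with LacZ. This scaling lowered log2 fold changes by 0.074 with Nrf1 and 0.093 with Nrf2. Scaling to every listed gene was not run, and calls under it may differ from those given. Over all listed genes with a unique symbol, the summed means were 8.89375e+06 in LacZ and 9.26601e+06 in Nrf1. On the scale of the Nrf2 comparison they were 9.4975e+06 in LacZ and 1.00147e+07 in Nrf2. The Nrf2 sums include *Nfe2l2*, the overexpressed gene. Reads were returned to the authors' scale and tested per pair with limma 3.58.1 (R 4.3.3, trended prior) on log2(value + 1), for genes whose mean reached 10 in 1 group or both (11432, 11601 and 11487 genes), with Benjamini-Hochberg adjustment. On simulated data 195, 198 and 194 of 200 genes changed 1.5-fold were called, and 13, 15 and 6 unchanged genes. The simulation used a dispersion of 0.005, drew each library independently and left all other genes unchanged. These rates therefore need not hold for the members, most of which moved by less than 1.5-fold. The read recovery, the pseudocount of 1, this filter and the fits were chosen after the files had been seen: ratios of means without a test had been planned, with limma if values per library were found. The voom weights, used as an alternative, were computed from the recovered reads. No other test was run on these reads as counts, since the deposited columns are means and not counts of single libraries.

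The members and lists were chosen with earlier results of these data known. Named are, per comparison and complex, the members with the highest and the lowest fold change, those past 1.5-fold, the other members by role, and up to 3 genes per other list past 1.5-fold with a mean of at least 100. Other list genes (*Cycs*, *Cox4i2*, *Cox6a1*, *Cox7a2*) and *Ube2b* were chosen after their values were seen. Cell type markers are given as lists only. The alternatives were centring on the median gene, scaling to the summed means, other folds, pseudocounts and filters, voom weights, each library left out, and *Ndufa4* in complex IV. The gene models of the rat build were not used here, so overlaps between genes were not checked, and no sequence is shown.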

Additional observations from a re-analysis of the deposited data

How the results depend on the processing

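No paired analysis was possible because the deposited columns are group means and the recovered libraries carry no replicate numbers. Of 395 alternative values of the counts, medians and background shares, 45 moved. Medians and shares have no test of their own, so a turn of direction past a test could not be counted for them. The medians of complexes III and IV with Nrf1 took the other sign in some fits with 1 library left out. In the order Nrf1 against LacZ, Nrf2 against LacZ and Nrf2 against Nrf1, a fold of 1.2 gave 12, 13 and 11 members higher and 1, 0 and 1 lower, and a fold of 2 gave 0, 0 and 1 higher. Centring on the median gene left 1 member past 1.5-fold in each comparison with LacZ and 2 members lower in Nrf2 than in Nrf1. It gave medians of 0.14 for all members, 0.10 for complex I, 0.13 for complex II and 0.30 for complex III in Nrf2 against Nrf1.

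Scaling to the summed means left 1 member past 1.5-fold in each comparison with LacZ and 21 members higher with Nrf2. The medians with Nrf1 were then 0.0079 for all members and 0.11, 0.044 and -0.15 for complexes I to III, and with Nrf2 0.11 for all members and 0.12, 0.14, 0.063 and 0.046 for complexes I to IV. Voom weights left 0 members past 1.5-fold in Nrf2 against Nrf1.

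Genes with a mean of at least 1000 had background shares at 1.5-fold of 7.52% lower with Nrf1, 4.28% lower with Nrf2 and 4.75% higher in Nrf2 than in Nrf1, and all genes fitted had 11.2% for the last.

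With 1 library left out, the members past 1.5-fold numbered 1 to 2 higher and 0 to 1 lower with Nrf1 and 1 to 3 higher with Nrf2, and 2 to 4 members were lower in Nrf2 than in Nrf1. The medians with Nrf1 ranged from -0.14 to 0.058 in complex III and from -0.092 to 0.088 in complex IV. In Nrf2 against Nrf1 they ranged from 0.086 to 0.11 over all members, 0.051 to 0.082 in complex I and 0.077 to 0.13 in complex II. These fits have 5 libraries, and the causes of the moves were not tested. Depth limits *Ndufs6*, whose normalised counts were under 100 in all libraries. Of the libraries with many *Ndufa1* reads, that of LacZ was the shallowest of its group and those of Nrf2 were the deepest of theirs.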
